A study of Caenorhabditis elegans with 14 samples.

Results

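The comparison set 3 arrays of adult Caenorhabditis elegans against 4 arrays of first-stage larvae (L1), all from animals with an intact daf-19 gene, out of 14 arrays in the series. Members were the arrays titled DAF(+) at either stage. Each array measured RNA of whole worms, and every animal, control or not, was mutant for daf-12, which makes the controls daf-12 single mutants and not wild type. The titles call the adults young, whereas the protocol took them 50 hours past the L4 stage. The other 7 arrays came from daf-19 daf-12 double mutants, 4 at L1 and 3 in adults, and gave the same stage comparison in animals that share no array with the controls. The labels call the replicates biological and say nothing of which were grown together.

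A newly hatched L1 larva has its pharynx, muscle, intestine and most of its neurons, but its germ line consists of a few primordial cells. A fertile adult hermaphrodite has a large gonad with mitotic, meiotic and growing oocytes, makes yolk in the intestine for export to those oocytes, and holds eggs and young embryos in its uterus. Germline nuclei are known to keep the X chromosome largely silent. Sperm of hermaphrodites are made in the last larval stage, before oocytes. In RNA of whole animals, fewer cells of a type and less RNA per cell cannot be told apart, so every level below is a share of the animal's RNA.

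The stages did not reach the deposited files on one scale, and this touches every result. The median probe set stood at a deposited log2 value of 4.72 to 4.76 in the L1 controls and of 5.91 to 6.02 in the adult controls. The arrays were therefore put on one common distribution (joint quantile normalization), and a gene was called only if limma's treat test placed its change beyond 2-fold at an adjusted p under 0.05. The median difference over all probe sets was 0.90 (log2) in the deposited values, -0.02 after joint normalization, 0.10 when the arrays were aligned on 18 hybridization spike-in probe sets, and -0.33 with each array's median set to 0. A gene is also said to hold under all 5 scalings, the fifth being within-array percentile ranks with a null of 10 percentile points. Detection calls were not used here. A gene below the 25th percentile on every array of one stage is given a difference of "at least", measured from the lower quartile of 4.09.

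The balance of signal along transcripts also differed with stage. On this chip some worm transcripts have one probe set near the 3′ end and another near the 5′ end. For actin the 3′ signal exceeded the 5′ signal by 2.44 to 2.88 (deposited log2) in the L1 controls and by 0.19 to 0.28 in the adult controls. For Gapdh the gap was 3.16 to 3.83 against -0.44 to -0.36, for ubiquitin 4.13 to 4.42 against 1.79 to 1.90, and for catalase 4.48 to 4.74 against 0.37 to 0.59. All 4 L1 arrays had these wide gaps and no adult array did, so for a single probe set, stage and distance from the 3′ end cannot be told apart. For catalase the order of the stages depended on the end measured: the 3′ probe set ranked at percentiles 94.5 to 96.3 at L1 and 75.6 to 80.8 in adults, the 5′ probe set at 54.9 to 62.6 and 70.8 to 77.0. The spike-ins, added at hybridization, averaged 8.78 to 9.40 in L1 controls and 9.76 to 9.86 in adult controls.

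**Figure D1:**
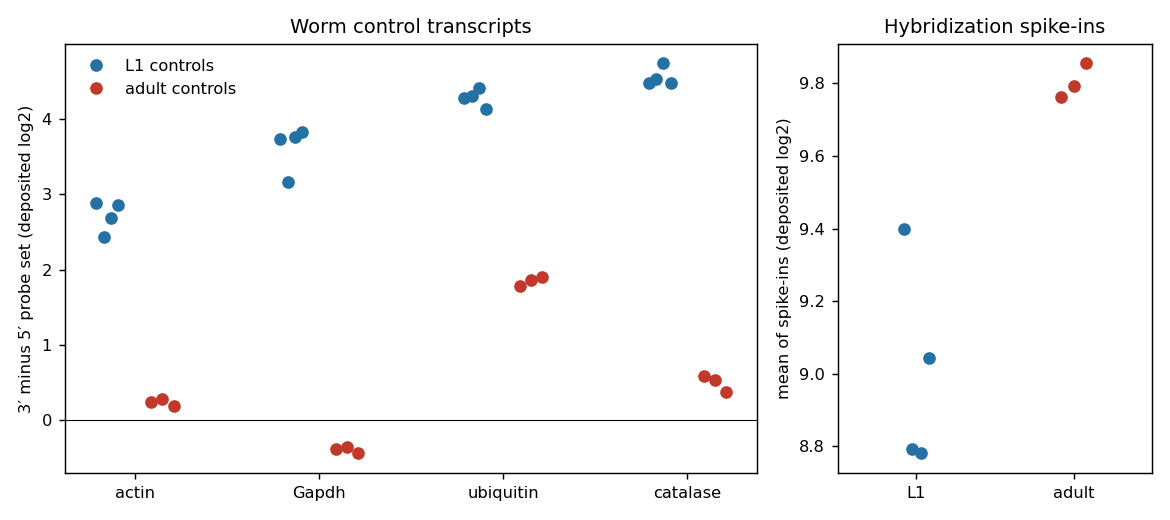
Left, the 3′ minus 5′ probe set difference (deposited log2 values) of actin, Gapdh, ubiquitin and catalase in each control array, one point per array; every L1 array lies above every adult array for all 4 transcripts. Right, the mean of the hybridization spike-in probe sets (deposited log2) in each control array, at 8.78 to 9.40 in L1 and 9.76 to 9.86 in adults.

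Over the 22548 probe sets, 4145 were higher (18.4%) and 4145 lower (18.4%), and limma called 16922 (75.0%) against no change at all. Where a gene had several probe sets, the one brightest on average across the 14 arrays stood for it, which left 17118 genes. Of these, 2894 were higher in adults (16.9%) and 3335 were lower (19.5%), 6229 in all (36.4%). Under all 5 scalings, 2592 were higher (15.1%) and 1264 lower (7.38%). This criterion is stricter for falls than for rises. The deposited values stand higher in adults (median difference 0.90) and were tested with the same 2-fold null. A larger share of rises than of falls holding is therefore built into it. Differences past 4 on the log2 scale were reached by 505 called genes among the rises and 470 among the falls. The percentile ranks of the adult and L1 arrays did not overlap for 13022 genes (76.1%), so a lack of overlap alone says little in this comparison. The median gene differed by -0.06 (log2), and the lists below are to be read against this and against the shares of 16.9% higher and 19.5% lower. The 3648 other probe sets of these genes had 1046 higher and 567 lower, with a median of 0.27. The balance of rises and falls among genes thus depended on the probe set chosen, as do the list counts below.

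The daf-19 mutants gave nearly the same counts. Their probe sets were 4126 higher (18.3%) and 4149 lower (18.4%). They had 2897 genes higher in adults (16.9%) and 3310 lower (19.3%). Of the probe sets higher in control adults, 94.7% were also higher in mutant adults, and of those lower, 92.9% were also lower, with 0 called in opposite directions. limma's test of the difference between the genotypes called 0.812% of the genes.

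Among genes represented by a probe set not marked as matching several transcripts, ule-4 had the largest rise. The gene ule-4, named for its expression in the uterine lumen, stood at 3.45, 3.70, 3.38 and 3.41 (normalized log2 signal) on the L1 arrays and at 12.70, 12.70 and 12.78 on the adult arrays. It was at least 400-fold higher in adults (limma treat, adjusted p = 1.12e-17), and its relative ule-5 at least 250.3-fold (adjusted p = 2.86e-17). Both were below the lower quartile in all 4 larval arrays and among the brightest probe sets of the adult arrays. The 12 largest rises among such unmarked probe sets also held mesp-1, named for meiotic spindles (7.68 log2 higher), the collagen gene col-122 (7.77), and ZC373.2 (8.04), ZK813.7 (at least 7.62) and C10G8.4 (at least 7.37), whose roles are not described here. The remaining ones, vit-1, vit-2, spn-4, egg-1 and puf-11, are taken up with their groups. Marked probe sets of vit-5, vit-4 and others given below had differences as large or larger, as did an unmarked probe set of vit-6 that does not represent its gene.

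Yolk proteins carry lipid and protein from the intestine to the oocyte. All 5 measured genes were higher in adults, with a median difference of 9.02 (log2), and all 5 held under every scaling. The gene vit-2 read 3.44, 3.36, 3.65 and 3.42 at L1 and 12.49, 12.45 and 12.52 in adults, at least 338-fold higher. Its neighbour in sequence vit-1 read 4.07 to 4.24 and 12.89 to 12.99, a difference of 8.80 ± 0.08 (log2, SE; limma treat, adjusted p = 1.12e-17). The median percentile of vit-2 was 5.20 at L1 and 99.1 in adults, and that of vit-1 was 26 and 99.4. For vit-6, which encodes the yolk protein that is cleaved after secretion, the levels were 6.00 to 6.41 and 14.19 to 14.25, a difference of 8.04 ± 0.09. The differences of vit-4 (9.62), vit-5 (10.02) and vit-6 (8.04) came from probe sets marked as matching several transcripts. The near-identical vit-4 and vit-5 cannot be separated here. Another vit-6 probe set, not so marked, was at least 9.78 (log2) higher in adults.

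Eggshell and oocyte surface genes behaved alike: 12 of 12 were higher, with a median of 6.39, and all 12 held under every scaling. The chondroitin proteoglycan cpg-2, a component of the eggshell, read 4.08, 5.21, 4.69 and 4.04 at L1 and 13.51, 13.25 and 13.03 in adults, a 433-fold difference. The gene egg-1, for an oocyte surface protein needed for sperm entry, rose from 4.09 to 4.52 at L1 to 11.96 to 12.20 in adults (7.71 ± 0.12). The yolk receptor rme-2 read 5.52 to 6.17 and 12.11 to 12.41, a difference of 6.47 ± 0.14 (limma treat, adjusted p = 3.5e-14). The smallest difference in the group was that of egg-6, at 4.47. Signal rose likewise for egg-3 (6.24), the chitin-binding cbd-1 (7.50) and the permeability barrier gene perm-2 (7.93).

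**Figure D2:**
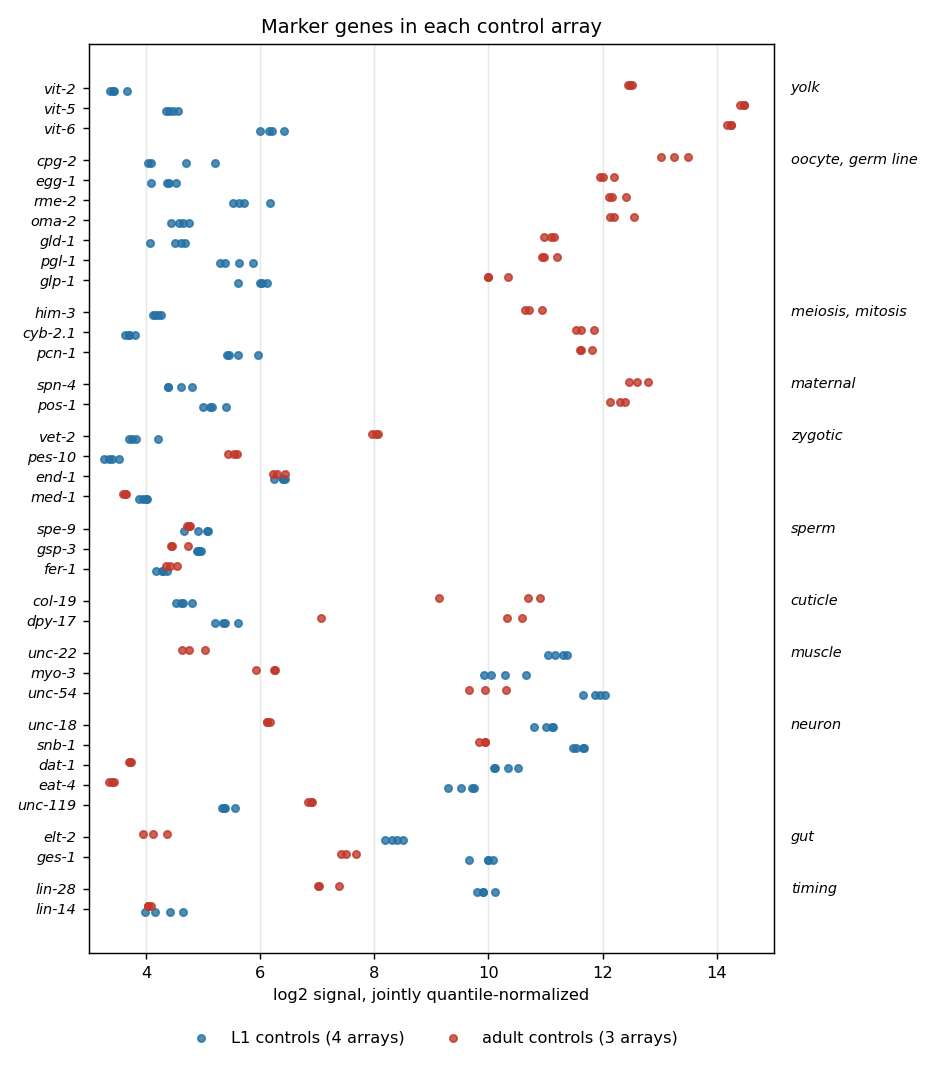
Jointly quantile-normalized log2 signal of marker genes on each control array, one point per array, 4 for L1 and 3 for adults, grouped by tissue or process. Yolk, oocyte, meiotic and maternal genes lie to the right in adults (vit-2 at 12.45 to 12.52 against 3.36 to 3.65), muscle genes and most neuronal genes to the left (unc-22 at 4.62 to 5.03 against 11.05 to 11.38), and sperm genes overlap or nearly so.

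Germline RNA regulators and components of P granules, the RNA-rich bodies of germ cells, had 34 of 39 genes higher and 1 lower, with a median of 3.63. Among the oocyte zinc finger proteins, oma-2 read 4.44 to 4.76 at L1 and 12.55, 12.20 and 12.12 in adults (7.69 ± 0.12, limma treat, adjusted p = 1.63e-15). The PUF family of RNA-binding repressors was high in adults, with puf-11 at 3.92 to 4.22 against 11.55 to 11.89, a 199-fold difference, and puf-5 and puf-3 differing by 7.47 and 6.16. gld-1, which holds maternal messages silent in the meiotic gonad, differed by 6.62, the P granule gene pgl-1 by 5.50, and the germline Notch receptor glp-1 by 4.18. The exception was gld-2, a cytoplasmic poly(A) polymerase, at 8.34, 9.17, 9.15 and 8.99 in larvae and 7.29, 7.31 and 7.15 in adults (-1.66 ± 0.17, limma treat, adjusted p = 0.00242). In the deposited values gld-2 differed by 0.24, so its direction was not kept across scalings. Of the other probe sets of this group's genes, 19 of 20 were higher.

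Of 29 meiotic chromosome genes, 27 were higher and 0 lower (median 3.51), and all 27 calls held under all 5 scalings. The axis protein him-3 read 4.11, 4.26, 4.15 and 4.21 at L1 and 10.93, 10.72 and 10.63 in adults, a difference of 6.58 ± 0.10 (limma treat, adjusted p = 2.11e-15). The synaptonemal complex gene syp-2 rose by 4.50, the double-strand break factor dsb-2 by 4.60, and zim-1, which pairs specific autosomes, by at least 4.66. The gene pair that did not pass was chk-2 (0.68) and mre-11 (0.79), the latter a repair nuclease used outside meiosis too.

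DNA replication and mitosis genes had 40 of 52 members higher and 0 lower, with a median of 2.70. The B-type cyclin cyb-2.1 read 3.63 to 3.81 at L1 and 11.54 to 11.86 in adults, at least 192-fold higher, and its close copy cyb-2.2 differed by 7.94; both probe sets can match more than one transcript. The replication clamp pcn-1 rose by 6.07, the origin subunit orc-1 by 5.57, and the kinase air-1 by 5.50. Members with smaller values included plk-1 (0.98), knl-1 (0.93) and capg-1 (-0.80), none of which was called. The summed signal of the list was 8122 to 9786 on the L1 arrays and 58117 to 66458 on the adult arrays, on a linear scale.

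Of 23 maternal genes that pattern the early embryo, 14 were higher and 1 lower, with a median of 1.82. The RNA-binding protein gene spn-4 read 4.38, 4.80, 4.38 and 4.60 at L1 and 12.80, 12.61 and 12.47 in adults (8.09 ± 0.14, limma treat, adjusted p = 4.85e-15). Other regulators of maternal messages were also far apart, with pos-1 higher by 7.11, mex-1 by at least 6.27 and mex-6 by 5.50, as was the Wnt ligand mom-2 (5.73). Among the polarity genes, which larval epithelia also use, par-2 rose by 3.00, while par-3 (-1.19), pkc-3 (-0.91), par-1 (-0.94) and par-6 (0.08) were not called. The member that fell was the kinase mbk-2 (-1.29), for which the deposited values gave 0.12.

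Early zygotic genes are those first transcribed in the embryo itself. Of 17, 5 were higher and 1 lower, with a median of 0.66; the deposited values gave 12 higher and 0 lower (median 1.77), and the mutants 3 higher and 1 lower. The list's summed linear signal was 635 to 712 at L1 and 962 to 1114 in adults. The gene vet-2, named for very early transcription, read 4.21, 3.83, 3.76 and 3.69 at L1 and 7.96, 8.03 and 8.06 in adults (4.15 ± 0.12). Its companion vet-6 rose by 2.94, pes-10 by at least 1.43 and sdz-28 by at least 2.85. The endoderm specifiers end-1 (6.24 to 6.43 against 6.22 to 6.44) and med-1 (3.87 to 4.02 against 3.59 to 3.64) were not called, med-1 lying under the lower quartile at both stages. The part that embryos in the uterus had in the maternal and cell division genes above was not tested. nhr-57, a nuclear receptor gene known for its response to low oxygen, fell by 2.07, though by only 0.41 in the deposited values.

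Sperm genes gave no comparable rise. Of 25, 3 were higher and 1 lower, and the median was -0.03, which became 0.90 in the deposited values, where 9 were higher and 0 lower. The sperm surface protein gene spe-9 read 4.66 to 5.08 at L1 and 4.71 to 4.77 in adults, the phosphatase gene gsp-3 4.89 to 4.96 and 4.43 to 4.73, and the ferlin gene fer-1 4.16 to 4.36 and 4.35 to 4.54. The 3 that rose were spe-39 (4.01), a vesicle sorting factor also used outside sperm, spe-44 (3.04), a transcription factor of the spermatogenesis programme, and ssp-10 (1.61). spe-4, a presenilin of the sperm organelles, fell by 1.52 (limma treat, adjusted p = 0.000843). Among 23 major sperm protein genes (msp), 0 were called in either direction, with a median of -0.76 that became 0.70 in the deposited values. limma treat also made 0 calls there at an unadjusted p under 0.05, and with the deposited values 2 of the 23 were higher.

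Beyond the lists of reproduction, gene families for basic cell machinery also stood higher in adults. Families were formed by the letters before the hyphen of a symbol, which gave 161 with 10 or more measured genes. Those with the highest share higher were the polymerase subunits rpb (9 of 10), the proteasome regulatory subunits rpn (12 of 13), the meiotic him genes (9 of 11), the cyclophilins cyn (11 of 15), the RNA-binding rbm genes (9 of 13), the nuclear pore proteins npp (16 of 26), the mitochondrial ribosomal proteins mrps (13 of 22) and the splicing factors prp (7 of 12). The proteasome subunit rpn-9 read 6.58 to 6.72 at L1 and 10.41 to 10.70 in adults (3.89 ± 0.10, limma treat, adjusted p = 7.04e-13). rpb-11 rose by 3.59, npp-19 by 4.82, mrps-6 by 4.06 and rbm-3.1 by 8.05. Cytoplasmic ribosomal proteins did not show this, with 2 higher and 1 lower among 35 rpl genes and 3 higher among 27 rps genes; the deposited values gave 13 and 7 higher and 0 lower. Their median percentile at L1 and in adults was 99.58 and 99.71 for rpl and 99.62 and 99.62 for rps, at the top of the scale at both stages.

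**Figure D3:**
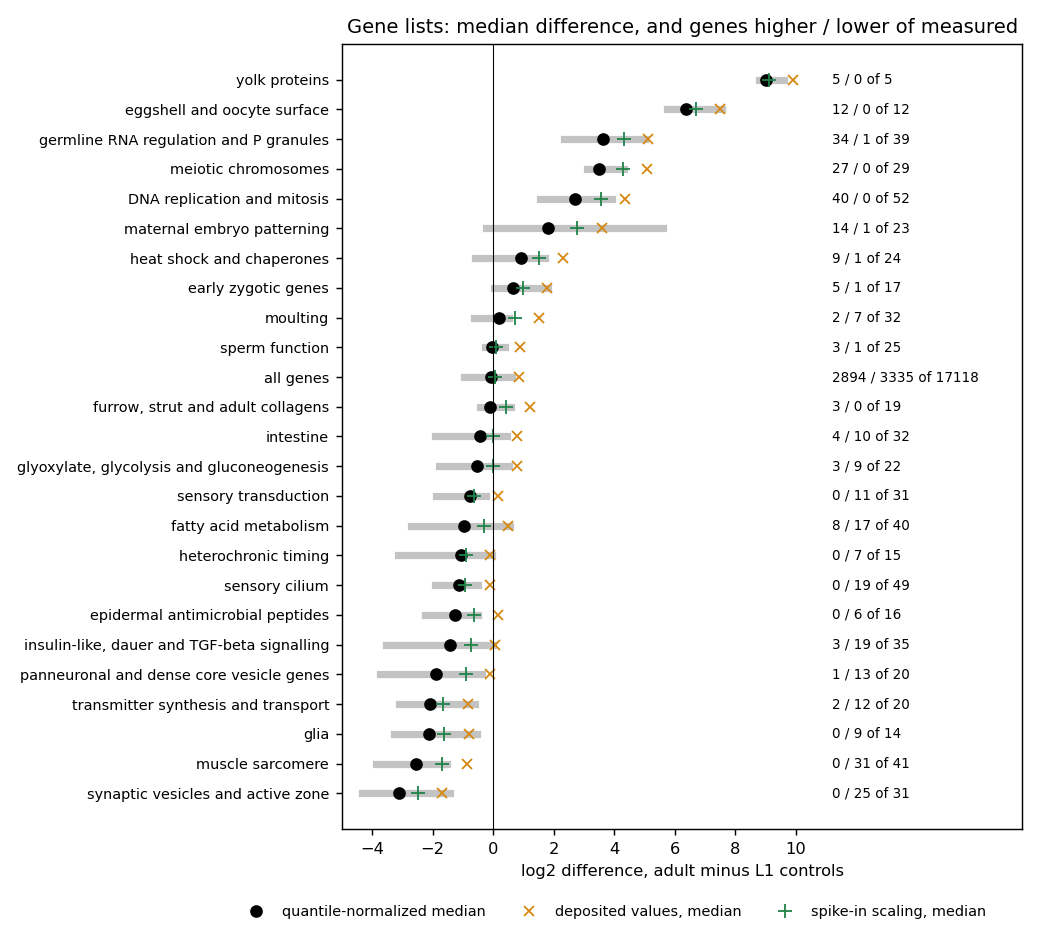
Median log2 difference, adult minus L1 controls, of each of 24 gene lists and of all genes, after joint quantile normalization (black circles, grey bars from the lower to the upper quartile of the members), in the deposited values (orange crosses) and with spike-in scaling (green plus signs). Numbers at the right count members higher and lower of those measured; yolk (5 of 5 higher) and eggshell genes (12 of 12) lie at one end and synaptic (25 of 31 lower) and muscle genes (31 of 41 lower) at the other.

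The largest fall was that of dbd-13. The gene dbd-13, whose role is not described here, read 11.84, 12.94, 12.25 and 12.22 at L1 and 4.17, 4.29 and 4.37 in adults, a 263-fold difference (limma treat, adjusted p = 5.28e-12). The calponin-like gene clik-2 read 12.33 to 12.70 and 4.41 to 5.15, and the collagen gene col-39 11.67 to 12.36 and 4.45 to 4.99. Their median percentiles at L1 and in adults were 98.9 and 30.8 for dbd-13, 99.1 and 48.2 for clik-2, and 98.6 and 39.2 for col-39. The gene feh-1, for a homologue of the amyloid precursor binding protein Fe65, fell by at least 6.70 (log2), and stdh-2 fell by at least 6.24. The 12 largest falls among representing probe sets not marked as matching several transcripts also held the saposin-like spp-12 (-7.18). Further members were the glutathione S-transferase gst-12 (-6.85), F45D3.2 (-6.73), ZC449.5 (-6.71) and T14B1.1 (-6.53). Nervous system genes supplied the other members, the dopamine transporter dat-1 and the FMRFamide-like peptide flp-19.

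Sarcomere genes had 31 of 41 members lower and 0 higher, with a median of -2.55, or -0.88 in the deposited values and -1.68 with spike-in scaling. The gene unc-22, for the giant muscle kinase twitchin, read 11.17, 11.38, 11.31 and 11.05 at L1 and 5.03, 4.62 and 4.75 in adults (-6.43 ± 0.13, limma treat, adjusted p = 1.99e-14). Pharyngeal muscle myosins were as far apart, with myo-2 at 11.37 to 11.81 against 5.46 to 5.73 and myo-1 differing by -6.95. Body wall myosins fell less on this scale: myo-3 by 4.09 and unc-54, the major heavy chain, by 1.91 from 11.66 to 12.04 at L1 to 9.66 to 10.31 in adults. Members not called included act-4 (-0.82), mlc-2 (0.16) and unc-60 (1.13). Calls held under all 5 scalings for 14 of the 31, and for unc-54 they did not (-0.64 in the deposited values). Other probe sets of the same genes were lower in 18 cases of 40, higher in 4; ttn-1, for a titin-like protein, fell by 6.0 in the probe set used and by 3.98 and 1.93 in 2 of its 5 others, and differed by 0.07, -0.04 and -0.17 in the remaining ones.

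Of 31 synaptic vesicle and active zone genes, 25 were lower and 0 higher, with a median of -3.11 (-1.67 in the deposited values), and 18 of the calls held under all 5 scalings. unc-18, the syntaxin-binding protein needed for release, read 11.11, 11.01, 10.79 and 11.12 at L1 and 6.11, 6.12 and 6.17 in adults (-4.87 ± 0.10, limma treat, adjusted p = 5.81e-14). The endocytic adaptor unc-41 read 10.29 to 10.44 and 4.98 to 5.21, the active zone organiser syd-1 9.69 to 9.95 and 3.95 to 4.36, and the calcium channel egl-19, also a muscle gene, differed by -4.33. Synaptobrevin snb-1 fell by 1.69 and stayed bright in adults at 9.84 to 9.94. The endocytic genes unc-57 (0.63), itsn-1 (1.11), unc-26 (0.13) and ehs-1 (-0.33) and the syntaxin unc-64 (-0.19) were not called. Without adult control array 1 the count was 23 lower. Of 36 other probe sets of the list's genes, 14 were lower and 1 higher, with a median of -0.86.

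Panneuronal and dense core vesicle genes had 13 of 20 lower and 1 higher (median -1.89, and -0.10 in the deposited values, where 7 were lower and 3 higher). The ankyrin unc-44 differed by -5.33 and the gap junction protein unc-9 by -5.34, with 9.76 to 9.95 at L1 and 4.52 to 4.58 in adults. unc-119, expressed in nearly all neurons, went the other way, from 5.33 to 5.56 at L1 to 6.84 to 6.90 in adults (1.46 ± 0.15, limma treat, adjusted p = 0.00998). The panneuronal marker rgef-1 lay below the lower quartile at both stages and could not be read. Among neuropeptide genes, 14 of 25 FMRFamide-like genes (flp) were lower and 0 higher, and 29 of 58 nlp genes were lower and 0 higher. The deposited values gave 10 lower and 1 higher for flp and 14 lower and 9 higher for nlp, whose median turned from -1.49 to 0.10. flp-8 read 11.07 to 11.63 at L1 and 4.86 to 5.05 in adults (-6.43), and flp-1 differed by -5.33. flp-19 differed by -6.55, from 11.99, 11.93, 11.95 and 12.36 to 4.95, 5.66 and 5.91, while its other probe set differed by 1.20 and was not called.

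Of 20 genes of transmitter synthesis and transport, 12 were lower and 2 higher (median -2.10, and -0.84 in the deposited values). The dopamine transporter dat-1 read 10.11, 10.53, 10.34 and 10.10 at L1 and 3.70, 3.71 and 3.73 in adults, at least 72.7-fold lower. The glutamate transporter of vesicles eat-4 was at least 44.5-fold lower, and the acetylcholine transporter unc-17 differed by -3.92. Other probe sets differed less, by -2.80 for dat-1, -1.81 for eat-4, and -3.55 and -2.24 for unc-17. Of 10 other probe sets of the list's genes, 6 were lower and 1 higher, with a median of -2.02. Both enzymes of the tyramine and octopamine pathway were higher in adults. tbh-1, which makes octopamine, read 5.25, 5.77, 5.48 and 5.58 at L1 and 11.18, 11.04 and 10.94 in adults (5.53 ± 0.15, limma treat, adjusted p = 5.2e-13), and tdc-1, which makes tyramine, rose by 5.08. Both are known to be expressed in sheath cells of the gonad as well as in a few neurons. The serotonin enzyme tph-1 (-0.66) and the dopamine enzyme cat-2 (-0.40) were not called.

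The gene daf-19 itself, the RFX transcription factor of the series and the activator of cilium genes, was lower in adults. It read 10.22, 10.34, 10.27 and 9.84 at L1 and 7.17, 7.25 and 7.40 in adults (-2.90 ± 0.12, limma treat, adjusted p = 9.37e-10). Its call ended with the deposited values (-1.19), and its other probe set differed by -1.13 (adjusted p = 0.386). Among 49 sensory cilium genes, 19 were lower and 0 higher, with a median of -1.14 (-0.12 in the deposited values, where 7 were lower and 3 higher). Of 13 other probe sets of these genes, 3 were lower and 0 higher, with a median of -0.42. che-12, needed for cilia of chemosensory neurons, read 8.11 to 8.52 at L1 and 3.52 to 3.72 in adults, at least 19.3-fold lower. The BBSome subunit bbs-5 differed by -4.35, the kinesin-II motor subunit klp-11 by -3.56 and the dynein heavy chain che-3 by -2.57. Other members gave little signal, such as dyf-1, che-13 and tub-1, which lay below the lower quartile in adults and near it at L1.

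Sensory transduction genes had 11 of 31 lower and 0 higher, with a median of -0.76 that became 0.17 in the deposited values, where 4 were lower and 1 higher. The touch receptor genes were among them: the stomatin-like mec-2 fell by at least 4.04, and the tubulin mec-7 read 9.83 to 10.11 and 6.88 to 7.25 (-2.89 ± 0.10). Other probe sets differed by -0.99 for mec-2, uncalled, and by -1.82 for mec-7, called. Of 5 other probe sets of the list's genes, 1 was lower and 0 higher, with a median of -0.30. The diacetyl receptor odr-10 differed by -3.80. Families of chemoreceptors were called rarely, with 1 higher and 7 lower of 232 srh genes and 1 higher and 3 lower of 177 str genes. The median str gene ranked at percentile 21.6 at L1 and the median srh gene lower still, so most gave little signal there. Glial genes had 9 of 14 lower and 0 higher (median -2.12, and -0.81 in the deposited values), with the transcription factors mls-2 (-3.73) and vab-3 (-3.42) and the cotransporter kcc-3 (-2.98). The 10 other probe sets of the glial genes had 2 lower and 1 higher, with a median of -0.18.

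Heterochronic genes time the larval stages, and all 15 were measured. Called lower were alg-1 (-4.15) and ain-1 (-3.96) of the microRNA machinery, lin-66 (-3.35), daf-12 (-3.20), hbl-1 (-3.07), lin-28 (-2.79) and lin-29 (-1.65); 0 were higher. The early-stage RNA-binding protein lin-28 read 9.90, 9.80, 9.91 and 10.11 at L1 and 7.0, 7.38 and 7.03 in adults (SE 0.11, limma treat, adjusted p = 6.23e-10). Its call ended with the deposited values (-1.07), and its 2 other probe sets differed by 0.09 and -0.33. The L1 marker lin-14 gave no usable level, at 3.98 to 4.64 and 4.02 to 4.08, so this stage marker could not be checked. lin-29, which acts at the change from larva to adult, read 6.40 to 7.06 and 4.87 to 5.06. The other 7 uncalled members were lin-41 (0.41), nhl-2 (0.50), mab-10 (0.10), kin-20 (0.07), lin-42 (-0.15), lin-46 (-0.87) and alg-2 (-1.07). A second lin-41 probe set rose by 3.20. daf-12, mutant in all these animals, read 9.02 to 9.35 and 5.87 to 6.16, while its 2 other probe sets differed by 0.15 and 0.37. The median of the list was -1.07, or -0.09 in the deposited values, where 4 were lower and 3 higher. Its genes had 16 other probe sets, 2 lower and 1 higher, with a median of 0.35.

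Cuticle genes carried a second stage marker and a wide spread between adult arrays. col-19, a collagen of the adult cuticle, read 4.60, 4.81, 4.65 and 4.52 at L1 and 9.13, 10.69 and 10.90 in adults (5.60 ± 0.33, limma treat, adjusted p = 5.99e-09). Of 19 furrow, strut and adult collagens, 3 were higher (15.8%, against 16.9% of all genes) and 0 lower. Their median was -0.11 and became 1.23 in the deposited values, where 8 were higher and 0 lower. The others called were dpy-17, at 5.21 to 5.61 against 7.06, 10.33 and 10.59, and dpy-14, at 4.17 to 4.54 against 5.97, 8.93 and 9.25. For both, adult control array 1 lay between the larval arrays and the other adult arrays. Without that array the difference grew from 3.94 to 5.06 for dpy-17 and from 3.71 to 4.70 for dpy-14. Over the whole col family, 13 of 128 genes were higher (10.2%) and 27 lower (21.1%), against 16.9% and 19.5% of all genes. This split turned to 46 higher and 12 lower in the deposited values (median -0.32, and 1.03 deposited).

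Moulting genes had 2 of 32 higher (6.25%) and 7 lower (21.9%), against 16.9% and 19.5% of all genes. Their median was 0.20, and the balance turned in the deposited values to 18 higher and 5 lower (median 1.51). The patched-related ptr-23 differed by -5.26, the hedgehog-related grl-21 and grd-10 by -4.72 and -3.21, and the lipoprotein receptor lrp-1, needed for shedding the cuticle, by -4.16. Higher in adults were noah-2, an apical matrix protein at 6.14, 7.82 and 7.86 in adults against 4.35 to 4.83 at L1, and the hedgehog-related wrt-10 (2.40). Epidermal antimicrobial peptides had 6 of 16 lower and 0 higher (median -1.24, and 0.18 in the deposited values, where 3 were lower and 2 higher), led by nlp-30 (-4.69), nlp-25 (-3.88) and nlp-31 (-3.48).

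Adult control array 1 and the other adult controls differed from each other beyond the collagens. A standard deviation over 1 (log2) was found for 52 probe sets in the adult controls, 24 in the L1 controls, 94 in the L1 mutants and 15 in the adult mutants. The genes given here were picked after their values were seen. The apical matrix gene noah-1 read 6.15 on array 1 against 8.68 and 9.06, the temporal regulator hbl-1 6.18 against 8.13 and 8.31, and a second probe set of the collagen sqt-3 6.52 against 9.87 and 10.35. On the adult mutant arrays these were even and nearer to array 1 than to arrays 2 and 3. There noah-1 read 6.18, 6.36 and 6.52, hbl-1 6.61, 6.77 and 6.71, and sqt-3 7.67, 7.92 and 7.98. Which control arrays show the usual adult level of these genes was not tested. A set of metabolic genes was low on array 1 as well, among them the flavin monooxygenase fmo-2 (4.66 against 8.10 and 8.85) and the alcohol dehydrogenase adh-1 (7.74 against 11.02 and 11.58). In these the adult mutants also had a low array 1, at 4.55 against 8.68 and 7.46 for fmo-2. What sets these arrays apart was not tested, and none of the 156 genes named by rule changed its call without array 1, whereas icl-1, given with sugar metabolism, did.

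**Figure D4:**
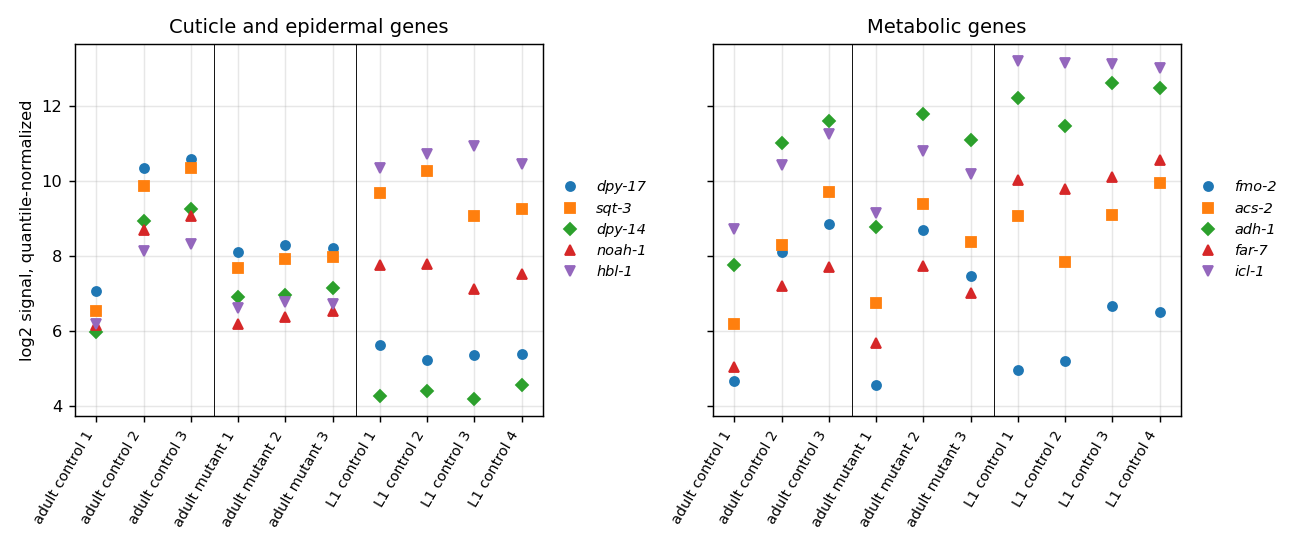
Quantile-normalized log2 signal of 5 cuticle or epidermal genes (left) and 5 metabolic genes (right) on the adult control, adult mutant and L1 control arrays, one point per array; for sqt-3, acs-2 and icl-1 the probe set shown is not the one that represents the gene elsewhere. Adult control array 1 is low for all 10 (dpy-17 at 7.06 against 10.33 and 10.59), and adult mutant array 1 is low for the metabolic genes.

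Of 32 intestinal genes, 4 were higher and 10 lower, with a median of -0.45. The deposited values turned this balance to 11 higher and 4 lower (median 0.79). The cathepsin B-like protease cpr-6 read 7.25, 6.74, 6.66 and 7.04 at L1 and 12.62, 12.53 and 12.58 in adults (5.65 ± 0.15, limma treat, adjusted p = 4.21e-13), and the metallothionein mtl-2 rose by 4.43. The gut transcription factor elt-2 read 8.19 to 8.50 and 3.95 to 4.37 (-4.20), with a second probe set at -0.20. The intermediate filament genes ifc-2 (-4.36) and ifb-2 (-3.81) of the gut terminal web and the esterase ges-1 (-2.40) were also lower. The yolk genes, also transcribed in the intestine, moved the opposite way from these falls.

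Heat shock and chaperone genes had 9 of 24 higher and 1 lower (median 0.92). The embryonic small heat shock protein sip-1 read 7.24, 7.58, 7.26 and 7.18 at L1 and 14.06, 13.81 and 13.76 in adults, a 94.7-fold difference (limma treat, adjusted p = 3.34e-15). The endoplasmic reticulum chaperone hsp-4 rose by 3.27, the constitutive hsp-1 by 2.67 and the chaperonin cct-7 by 1.94. Heat-inducible hsp-70 (1.29) and hsp-16.2 (-0.95) were not called. The gene hsp-12.3 fell by 3.23, a call kept neither with the deposited values nor in the daf-19 mutants.

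Fatty acid genes moved both ways, with 8 of 40 higher and 17 lower (median -0.96), a balance that turned to 17 higher and 5 lower in the deposited values (median 0.51). The peroxisomal oxidase acox-1.1, known from pheromone synthesis, differed by -3.71, and its pathway partners maoc-1, daf-22 and dhs-28 by -3.42, -3.37 and -2.67. The fatty acid synthase fasn-1 fell by 3.42 and the desaturase fat-3 by 3.57. Higher in adults were the binding proteins lbp-9 (4.57) and far-2 (3.54) and the elongase elo-5 (3.83), which acts in branched-chain fatty acid synthesis and read 7.75 to 8.36 at L1 and 11.70 to 12.03 in adults. Of the falls, 2 held under all 5 scalings, and of the rises 6.

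Sugar metabolism genes had 3 of 22 higher and 9 lower (median -0.53), and the deposited values reversed this to 9 higher and 3 lower (median 0.80). Under all 5 scalings 1 rise and 2 falls held. The trehalose synthase tps-1 read 11.38, 10.99, 11.31 and 10.88 at L1 and 5.89, 5.92 and 6.07 in adults (-5.18 ± 0.13, limma treat, adjusted p = 3.01e-13). The gluconeogenic enzyme pck-1 fell by 3.10 and the glycolytic pfk-1.1 by 2.97. The glyoxylate enzyme icl-1 read 13.30 to 13.42 and 9.86, 11.36 and 12.10 (-2.26, adjusted p = 0.0119), and lost its call without adult control array 1 (-1.65, adjusted p = 0.0804 by the same limma test). The mitochondrial malate dehydrogenase mdh-2 rose by 2.12 in the probe set used and fell by 1.63 in its other one. Without adult control array 1 the list had 2 higher and 7 lower.

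Insulin, dauer and TGF-beta signalling genes had 19 of 35 lower and 3 higher (median -1.43, and 0.05 in the deposited values, where 11 were lower and 9 higher), and 11 of the falls held under all 5 scalings. The 27 other probe sets of the same genes went the other way, with 8 higher, 5 lower and a median of 0.15. The insulin receptor substrate ist-1 differed by -5.07 and the kinase akt-2 by -4.94. In the TGF-beta pathways the type II receptor daf-4, which serves both the dauer and the body size branch, read 11.23 to 11.49 at L1 and 6.93 to 7.12 in adults (-4.38 ± 0.09, limma treat, adjusted p = 5.76e-14). The body size receptor sma-6 (-4.74) and the Smads sma-3 (-4.03), daf-14 (-3.96) and daf-3 (-3.21) were lower, and the dauer ligand daf-7 fell by 2.22. Opposite to these, the lipid kinase age-1 rose by 2.42 and the phosphatase daf-18, which opposes it, by 1.80. The FOXO factor daf-16 fell by 1.98, and differed by -0.13, uncalled, in the deposited values. The insulin receptor gene daf-2 gave too little signal to be read.

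Other families with a high share lower were the unc genes (64 of 94), named for uncoordinated movement (36 lower and 19 higher in the deposited values), the sodium-calcium exchangers ncx (6 of 10), the tetraspanins tsp (10 of 17), the galectins lec (7 of 12), the mec genes of touch (9 of 16) and the peroxisome genes prx (7 of 11, with 3 higher). In the deposited values prx turned to 1 lower and 3 higher, lec had 2 lower and 2 higher, tsp 4 and 2, mec 5 and 1, and ncx 2 and 0. unc-79, needed for a sodium leak channel, read 10.36 to 10.46 at L1 and 4.90 to 4.92 in adults (-5.51), but 3 other probe sets differed by 0.14, -0.49 and -0.89. ncx-2 was at least 46.1-fold lower and ncx-4 fell by 5.74, but another ncx-2 probe set differed by -0.39 and was not called. In the prx family prx-2 fell by 2.94 and prx-14 rose by 2.51. Nuclear hormone receptors (nhr) had 82 of 254 lower and 4 higher, but 27 lower and 31 higher in the deposited values. Glutathione S-transferases (gst) had 21 of 40 lower and 2 higher, but 10 and 8 in the deposited values, and the glucuronosyltransferases (ugt) 25 of 64 lower and 3 higher, but 8 and 10. The nssp genes, whose role is not described here, had 25 of 43 lower and 1 higher, with 7 and 3 in the deposited values. By contrast the Skp1-related skr genes had 11 of 19 higher and 2 lower.

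Chromosomes differed in how their genes moved. Of 2353 measured genes on the X, 7.90% were higher in adults and 32.6% lower, whereas of 14717 on the autosomes 18.4% were higher and 17.4% lower. The highest shares of rises were on chromosome III (25.9%) and chromosome I (25.6%), and chromosome V had 10.4% higher and 18.3% lower. The median difference was -0.42 on the X and -0.02 on the autosomes. The X thus had a lower share of rises and a higher share of falls than any autosome under joint normalization, although the yolk genes vit-1, vit-2, vit-4 and vit-5 lie on it. Under all 5 scalings 169 X-linked genes were higher and 332 lower, against 2419 and 925 on the autosomes. In the deposited values the X had 610 higher and 340 lower, and the autosomes 5656 and 952.

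Within each array, which needs no scaling between stages, the median X-linked gene ranked above the median autosomal gene by 7.11, 6.65, 6.86 and 6.46 percentile points on the 4 L1 control arrays. On the 3 adult control arrays the X-linked median was at -0.50, -0.28 and -0.23 points relative to the autosomal one. The stages did not overlap, and the difference was -7.11 points (6.77 ± 0.28 at L1, n = 4, and -0.34 ± 0.14 in adults, n = 3, mean ± SD; two-sided exact permutation test, p = 0.0286, the smallest that 35 arrangements allow). The daf-19 mutants gave -7.06 (exact permutation p = 0.0286). With dim genes left out the difference was -11.1 points, from 2.49 ± 0.10 at L1 to -8.65 ± 0.33 in adults (mean ± SD). The direction of the stage difference was thus kept without dim genes. The level at each stage was not, and the near equality of X-linked and autosomal medians in adults held only with dim genes included. The 3′ to 5′ gap and the germline genes moved with the same arrays, and their part in the stage difference was not tested.

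**Figure D5:**
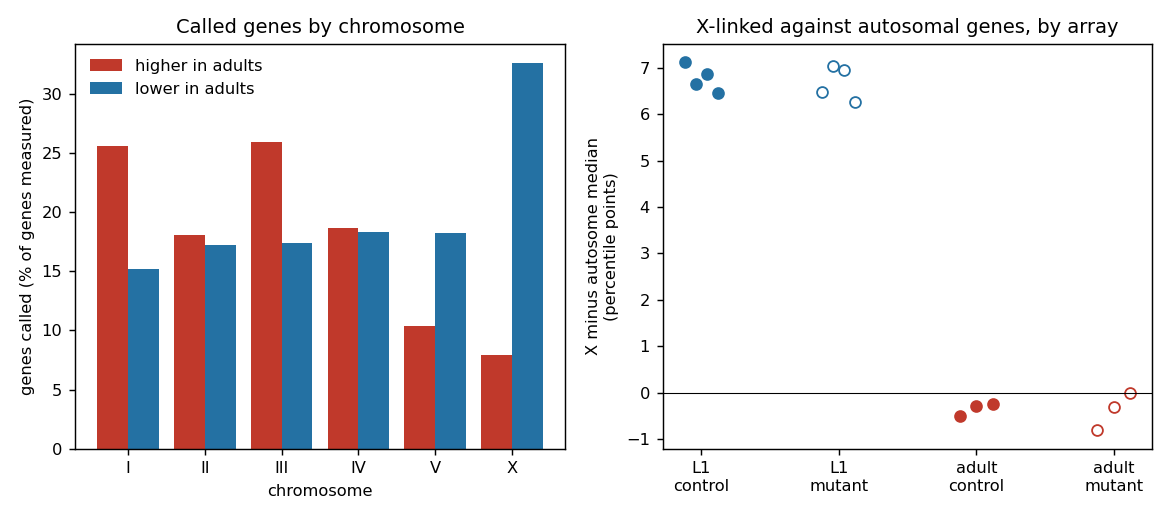
Left, the share of measured genes called higher or lower in adult controls than in L1 controls on each chromosome (limma treat, in percent); the X has 7.90% higher and 32.6% lower. Right, the median percentile rank of X-linked genes minus that of autosomal genes within each array, one point per array, at 6.46 to 7.11 in L1 controls and -0.50 to -0.23 in adult controls, with the mutants as open circles.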

How the data were processed

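RNA of whole worms was measured on 14 Affymetrix C. elegans arrays of 22625 probe sets; per the labels' protocols, 6 ug of total RNA was labelled as biotin cRNA. The authors deposited log2 signals; how they were summarised and normalized is not given in the sources used here, and the scale was read from the values. Of the probe sets, 77 controls were left out and 22548 tested; 20766 had 1 gene, 887 several and 895 none in the platform's annotation. RefSeq (WBcel235) held 20701 and changed 0 symbols. Names ending in _x_at (1227) or _s_at (5484) can match several transcripts.

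All arrays were quantile-normalized together and fitted with limma 3.58.1 in R 4.3.3, with a mean for each of 4 groups, 10 residual and 3.94 prior degrees of freedom. Stage differences were tested with treat against a 2-fold change (two-sided, Benjamini-Hochberg over all probe sets, 0.05). Precision is limited by the number of arrays, with a median SE of 0.119 (log2). P-values measure the spread between these samples. The treat calls of adult against L1 controls were tried on simulated data. Same-numbered adult and L1 arrays correlated at -0.0424, 0.0121 and -0.0321 in their deviations, which gave no sign that the numbers pair them. With so few arrays this cannot settle which were grown together. Named genes are the 12 largest rises and falls with non-overlapping ranks among representing probe sets of 1 gene not ending in _x_at or _s_at. They also hold up to 4 called members of each of 24 lists, every yolk and heterochronic gene, and daf-19. The rest are 2 genes from each of the 8 families with the highest share higher and the 8 with the highest share lower. Further list members are given as examples. Members and lists were chosen with earlier results of these data known. Alternatives were 4 other scalings, other fits and filters, other probe sets and leaving out each array; spike-in scaling, other probe sets and list counts without adult control array 1 were added after seeing the data.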

Additional observations from a re-analysis of the deposited data

Results flagged for a closer look

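In 6 of the 156 named genes the stage difference itself differed between the genotypes by limma's interaction test. Over all 17118 genes the same test called 139 (0.812%). The collagen col-122 rose by 7.77 (log2) in controls and 5.64 in daf-19 mutants, a difference of -2.13 (adjusted p = 0.00256). The protease cpr-6 rose by 5.65 and 4.26, a difference of -1.40 (adjusted p = 0.00438). For the early zygotic gene vet-6 the rises were 2.94 and 1.85 (difference -1.08, adjusted p = 0.0242), all by the limma interaction test. The test also gave pes-10 a difference of -0.98, but its L1 arrays lay below the lower quartile, so neither rise has an exact size; its adult means were 5.52 in controls and 4.65 in mutants. Falls differed for the cilium gene xbx-3, at -3.28 in controls and -2.19 in mutants (difference 1.10, adjusted p = 0.0124), and for the antimicrobial peptide cnc-4, at -2.15 and -0.75 (difference 1.39, adjusted p = 0.039).

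In 8 of 156 genes 1 L1 control array stood apart from the other 3. Chance alone does this in about 1 of 20 groups, and the count is near that share. flp-19 read 12.36 on array 4 against 11.93 to 11.99, and flp-1 12.25 on array 4 against 11.71 to 11.77. On the same array unc-41 was low at 10.29 against 10.43 to 10.44, and unc-9 at 9.76 against 9.92 to 9.95. Array 1 was low for cbd-1 (4.67 against 4.89 to 4.90) and lec-7 (8.57 against 8.92 to 8.96) and high for unc-44 (12.68 against 12.56 to 12.57). Array 2 was low for nlp-25, at 7.62 against 8.21 to 8.28. All 8 gaps were small beside the stage differences of these genes.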

How the results depend on the processing

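The counts of probe sets higher in adult than in L1 controls (4145) and of probe sets lower in adult than in L1 controls (4145) were 8770 and 1612 with the deposited values, 5388 and 2601 with spike-in scaling, 8245 and 8677 when tested against no change, and 2537 and 2555 of 15837 with cross-matching probe sets left out. The share higher among called probe sets was 50%, against 84.5% with the deposited values, 67.4% with spike-in scaling, 54.4% with array medians set to 0 and 47.9% with percentile ranks. Leaving out an array gave 4029 to 4113 higher and 3951 to 4142 lower. A replicate block gave 4161 and 4184 and changed no named call. The X minus autosome difference was -0.454 (log2) with array medians set to 0, -11.1 points with dim genes left out, and -7.21 to -6.99 without 1 array (exact permutation p = 0.0667 or 0.1, the smallest possible).

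Of 156 named genes, 8 lost their call with the deposited values, 4 with percentile ranks and 3 with spike-in scaling; no called one reversed under a scaling, while the uncalled lin-14, lin-42, alg-2 and mab-10 changed sign under 1 or more. Of the called genes given as further examples, gld-2 (0.24) and mbk-2 (0.12) changed sign with the deposited values. Of 101 other probe sets of these genes, 63 gave the same call, 20 lost it, 1 gained it and 17 had the opposite sign with at least 1 of the pair called: ifc-2 0.024, ttn-1 0.068, dyf-7 0.077, lin-28 0.086, unc-79 0.14, daf-12 0.15 and 0.37, alg-1 0.35, mls-2 0.35, vab-3 0.44, hbl-1 0.51, unc-44 0.65, ain-1 0.66, lin-66 0.93, flp-19 1.20, lec-12 2.03 and mdh-2 -1.63. Uncalled pairs that differ in sign, such as those of alg-2 (1.34) and lin-46 (0.42), are among the 63. Among all called genes, 769 of 2011 other probe sets were called the same way, 163 the opposite way and 1079 not at all. The cause was not tested. Scaling and 3′ bias were shared by all arrays of a stage and cannot be told apart from it.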
